A study of Rattus norvegicus with 9 samples.

Results

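The genes of 10 effectors below the β-adrenoceptor were followed at the level of mRNA in rat bladder: the G protein gene Gnas, the adenylyl cyclase genes Adcy3, Adcy5 and Adcy7, the protein kinase A genes Prkaca, Prkacb, Prkar1a and Prkar2b, the Epac gene Rapgef3 and the receptor kinase gene Grk2. All 13 array probes whose transcript accession maps to one of these 10 genes were taken, out of 30367 probes and 15168 genes with a named probe. RNA from bladders of female rats was hybridised to 9 Agilent arrays with 1 colour, 3 in each of 3 groups at week 3. The first group, pBOO + tolterodine, had partial bladder outlet obstruction and was treated with tolterodine, a blocker of muscarinic acetylcholine receptors. The pBOO group had the obstruction alone, for which the proximal urethra was tied over a catheter, and the sham group was operated on without the tie. Strain, age and the dose of tolterodine are not given in the labels, and the labels do not say whether an array holds 1 animal or a pool. All p-values therefore describe differences between arrays. The letters that the treatment protocol gives to obstruction and sham run opposite to those used to code the samples. Groups follow the array titles throughout, and with these titles exchanged the comparison of pBOO with sham would change its sign and the comparisons with tolterodine would trade places.

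In this pathway a β-adrenoceptor activates the stimulatory G protein, whose α subunit switches on adenylyl cyclase, and the cyclase makes cyclic AMP. Cyclic AMP binds the regulatory subunits of protein kinase A and frees its catalytic subunits, and it also binds Epac, an exchange factor that activates the small GTPase Rap. Phosphodiesterases break cyclic AMP down, and G protein-coupled receptor kinases mark active receptors for arrestins. In bladder smooth muscle the pathway is known for relaxing the muscle during filling, mainly through the β3-adrenoceptor.

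Levels are log2 intensities relative to an array's 75th percentile, so 0 is that percentile, and changes are log2 fold changes from a limma fit over all 20475 tested probes with Benjamini-Hochberg adjustment and a threshold of 0.05. The 75th percentile ran from 523 to 1441 intensity units over the arrays, and 72.1% to 80.1% of spots were well above background. The lowest level that was called so lay between -6.29 and -5.54, and levels in that region are near background. Arrays that share a scan date in the file headers are called a slide here, since the array titles name no slide. By this grouping slide 1 held tolterodine arrays 1 and 2 with sham arrays 2 and 3. Slide 2 held the pBOO arrays with sham array 1, and slide 3 held tolterodine array 3 alone. No slide held both tolterodine and pBOO arrays, so slide and group cannot be told apart within slides for that comparison. In whole tissue, fewer cells of a type and less RNA per cell cannot be told apart.

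Of the 10 genes, 3 were higher and 3 were lower in pBOO than in sham by the tested probe with the highest mean level. For Gnas this was the dimmer probe. Over all genes with 1 probe each, 41.2% were called (20.3% higher and 20.9% lower). Prkacb, Adcy5 and Rapgef3 rose, while Grk2, Prkar1a and the first Adcy7 probe fell. The second Adcy7 probe had a change of -0.07 and was not called. By probe, 7 of 12 tested were called, 4 higher and 3 lower, beside 40.9% of all probes (20.1% higher and 20.9% lower), with a median change of 0.13 over these probes and -0.04 over all probes. The tolterodine arrays differed from the pBOO arrays in 5 of 12 probes, 4 higher and 1 lower, beside 38.6% of all probes (25.4% higher and 13.2% lower). Adcy7, Grk2 and Prkar1a were higher and Rapgef3 was lower, and the probes had a median change of 0.16, the same as over all probes. In pBOO + tolterodine against sham, 5 of 12 probes were called and each was higher, beside 23.9% of all probes (18.2% higher and 5.71% lower), and they belonged to Adcy5, Adcy7, Prkaca and Prkacb. The median change was 0.18 over the member probes and 0.12 over all probes. The comparisons share groups, so their values for a gene are not independent.

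**Figure D1:**
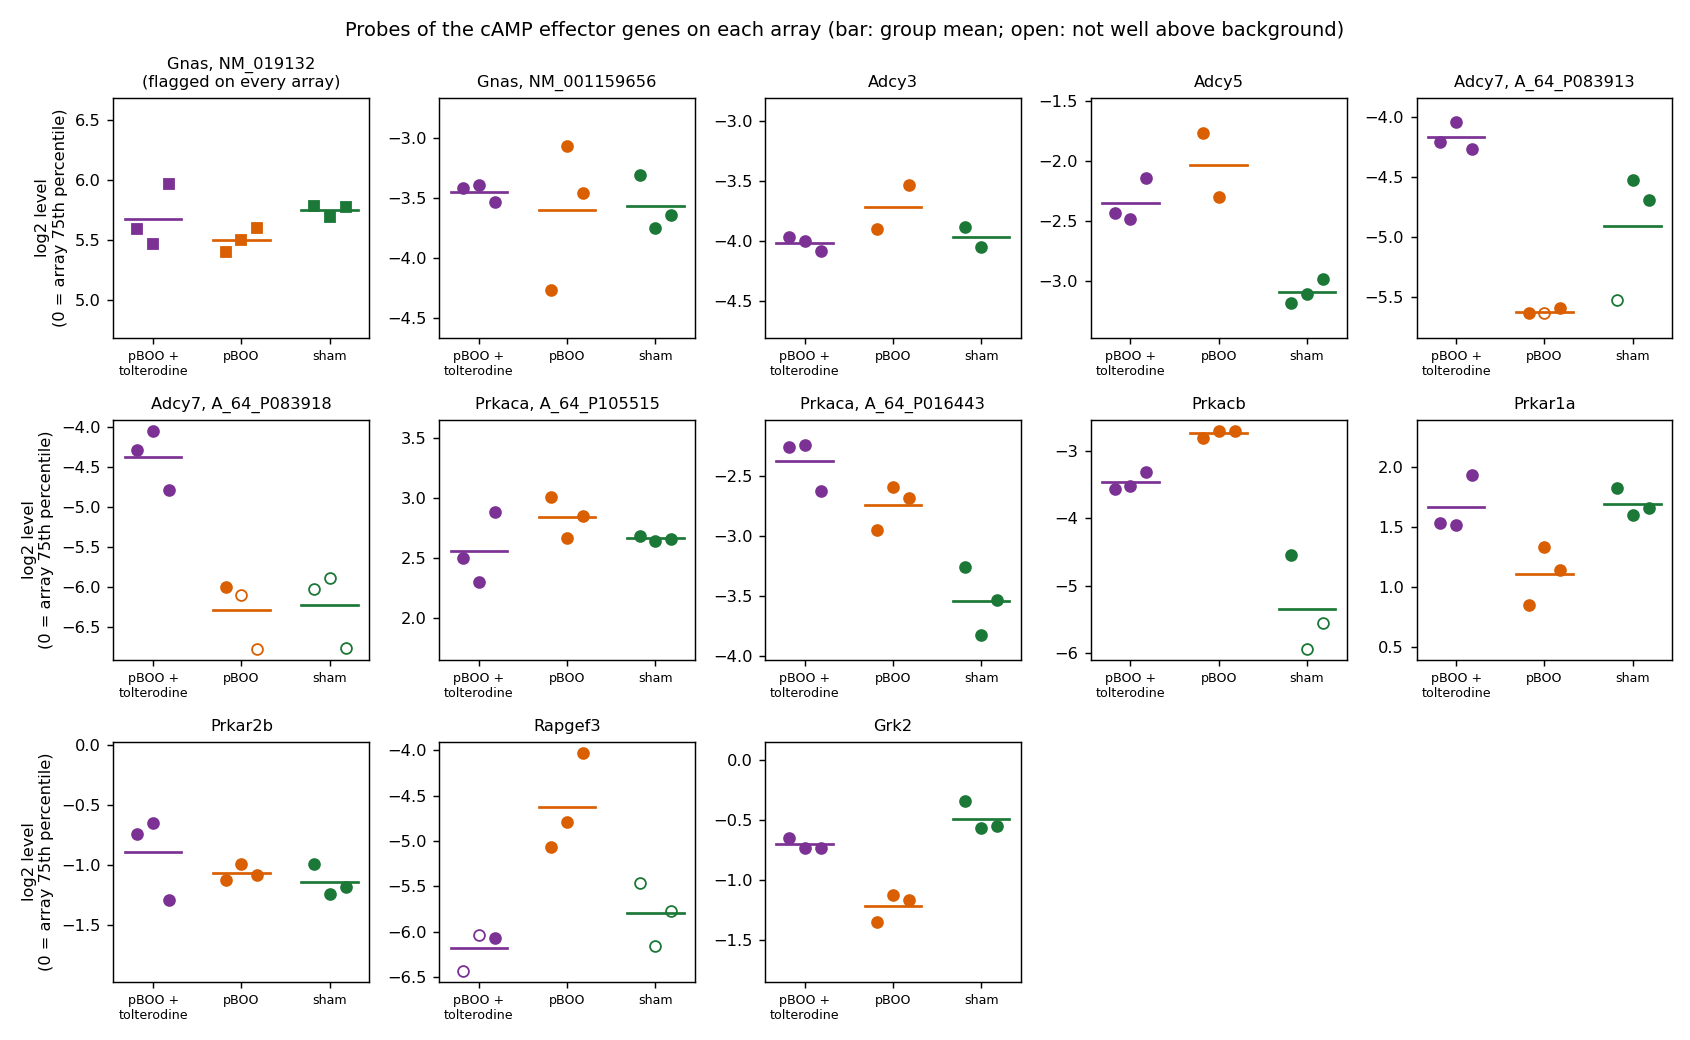
Log2 level (0 is the array's 75th percentile) of the 13 probes of the cAMP effector genes on each array, in 1 panel per probe. Points are arrays, bars are group means and open points are not well above background. Squares mark the bright Gnas probe, which was flagged on every array and is drawn with flagged spots kept. Flagged spots of Adcy3 and Adcy5 are not drawn. Prkacb shows the widest spread of group means, with every pBOO array at or above -2.81 and every sham array at or below -4.55.

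Gnas encodes the α subunit of the stimulatory G protein, and its locus also gives other transcripts from further start sites. The probe for transcript NM_019132 was bright on every array but carried a background flag on every array, so it was left out of the test. With flagged spots kept, its levels were 5.60, 5.47 and 5.97 in pBOO + tolterodine, 5.40, 5.50 and 5.60 in pBOO, and 5.78, 5.69 and 5.77 in sham. The pBOO arrays lay below all sham arrays and overlapped the tolterodine arrays. The change with flagged spots kept was -0.25 in pBOO against sham (limma, adjusted p = 0.204) and 0.18 in pBOO + tolterodine against pBOO (limma, adjusted p = 0.365). The probe for NM_001159656, spotted 10 times, had levels of -3.42, -3.39 and -3.53 in pBOO + tolterodine, -4.26, -3.07 and -3.45 in pBOO, and -3.31, -3.75 and -3.64 in sham. The pBOO arrays spanned both other groups, and the limma adjusted p ran from 0.693 to 0.942 over the comparisons, with a change of -0.03 in pBOO against sham (95% interval -0.65 to 0.59).

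Adenylyl cyclases make cyclic AMP from ATP, and Adcy5 and Adcy7 had called probes while Adcy3 had none. Adcy5, a cyclase that is inhibited by calcium, had levels of -2.43, -2.48 and -2.14 in pBOO + tolterodine, -1.76 and -2.30 in pBOO, where the spot of array 3 was flagged, and -3.18, -3.11 and -2.98 in sham. Every unflagged array of both obstructed groups lay above every sham array, and the obstructed groups overlapped. Adcy5 rose by 1.06 in pBOO against sham (SE 0.19, limma adjusted p = 0.00402), a fold of 2.09, and by 0.74 in pBOO + tolterodine against sham (SE 0.17, limma adjusted p = 0.0200). Its change of -0.32 in pBOO + tolterodine against pBOO missed the threshold (limma adjusted p = 0.220, 95% interval -0.77 to 0.13). Within slide 2 the change in pBOO against sham was 1.15 (limma adjusted p = 0.0872), and within slide 1 that in pBOO + tolterodine against sham was 0.59 (limma adjusted p = 0.00970). The call of pBOO + tolterodine against sham was lost without tolterodine array 1 or sham array 2, where the change was 0.78 and 0.73, with scaling on the array median (0.60) or quantiles (0.57), with slide as a fixed block (0.59, limma adjusted p = 0.0585) and with normexp, another background correction (0.46, limma adjusted p = 0.151). Normexp brought the change in pBOO against sham to 0.59 (limma adjusted p = 0.0488). Normexp was run on the raw median signals with an offset of 50 intensity units, and such an offset shrinks the changes of dim probes.

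Adcy7, a cyclase that is abundant in blood and immune cells, had 2 tested probes. The first, A_64_P083913, had levels of -4.21, -4.05 and -4.27 in pBOO + tolterodine, -5.64, -5.64 and -5.60 in pBOO, and -5.53, -4.52 and -4.69 in sham. Tolterodine arrays were above all others, pBOO arrays lay near background, and sham array 1, the sham array on the slide of the pBOO arrays, stood close to them. This probe rose by 1.45 in pBOO + tolterodine against pBOO (SE 0.23, limma adjusted p = 0.00177), by 0.74 against sham (SE 0.23, limma adjusted p = 0.0493), and fell by 0.71 in pBOO against sham (SE 0.23, limma adjusted p = 0.0381). With slide as a block the change in pBOO + tolterodine against pBOO was 0.58 (limma adjusted p = 0.0353), and within slide 2 that in pBOO against sham was -0.10 (limma adjusted p = 0.611). The call of pBOO against sham was lost in 13 of 20 alternatives, among them leaving out any array other than sham array 1 or tolterodine array 3, at -0.52 to -0.73. A loss in 13 of 20 was also found for that of pBOO + tolterodine against sham, among them leaving out any array other than sham array 1 or 2. Without sham array 1 that change was 0.43, and within slide 1 it was 0.48 (limma adjusted p = 0.0257).

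The second Adcy7 probe, A_64_P083918, had levels of -4.29, -4.05 and -4.79 in pBOO + tolterodine, -6.00, -6.10 and -6.77 in pBOO, and -6.02, -5.89 and -6.76 in sham. It was well above background on every tolterodine array, on 1 of 3 pBOO arrays and on 0 of 3 sham arrays. It was higher in pBOO + tolterodine than in pBOO, with a fitted change of 1.91 (SE 0.30, limma adjusted p = 0.00151), or 1.61 with the 2 dim pBOO arrays at the lowest level called well above background. It was at least 2.39-fold higher in pBOO + tolterodine than in sham (limma adjusted p = 0.00376). Such a lower bound sets the mean of the brighter group against the lowest level called well above background, or the probe's own level where higher, on each array of the other group. It allows for background and not for the spread between arrays. Both probes were higher under tolterodine than in pBOO, and in pBOO against sham only the first was called, while the second had a change of -0.07 (limma adjusted p = 0.869). With normexp background correction the changes in pBOO + tolterodine against pBOO were 0.60 for the first and 0.59 for the second, and those against sham were 0.14 and 0.36 (limma adjusted p = 0.833 and 0.365), and none of these was called.

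Adcy3, a cyclase best known from olfactory neurons, had levels of -3.96, -4.00 and -4.08 in pBOO + tolterodine, -3.90 and -3.53 in pBOO with array 2 flagged, and -3.88 and -4.05 in sham with array 3 flagged. The pBOO arrays overlapped sham and lay above the tolterodine arrays. Its change of 0.25 in pBOO against sham (limma adjusted p = 0.299) and of -0.30 in pBOO + tolterodine against pBOO (limma adjusted p = 0.183) missed the threshold, and with quantile scaling the second was called, at -0.49 (limma adjusted p = 0.0351).

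Promoter windows of the cyclases are shown for the 2 cyclase genes with called probes. Each window is taken from RefSeq on the rat assembly GRCr8, runs from 250 bases before to 50 bases after an annotated start, and is written 5′ to 3′ in the direction of the gene. Capitals mark the core of the cyclic AMP response element, TGACG, or CGTCA on the other strand, which also lies inside the full element TGACGTCA. The Adcy5 window is chr11:79123294-79123593 on the minus strand and that of Adcy7 is chr19:34936495-34936794 on the minus strand.
Adcy5: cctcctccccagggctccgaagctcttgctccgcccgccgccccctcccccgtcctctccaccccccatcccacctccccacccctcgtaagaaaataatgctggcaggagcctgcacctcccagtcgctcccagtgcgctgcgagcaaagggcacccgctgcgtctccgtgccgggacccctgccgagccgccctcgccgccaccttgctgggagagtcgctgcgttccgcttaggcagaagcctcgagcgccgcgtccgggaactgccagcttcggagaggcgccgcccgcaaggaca
Adcy7: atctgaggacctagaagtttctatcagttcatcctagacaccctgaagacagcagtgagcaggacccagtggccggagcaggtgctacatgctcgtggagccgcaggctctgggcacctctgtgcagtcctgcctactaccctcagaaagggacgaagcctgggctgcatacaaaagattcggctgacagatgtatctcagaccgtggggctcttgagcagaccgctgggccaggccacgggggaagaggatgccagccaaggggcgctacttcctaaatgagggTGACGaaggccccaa
The Adcy7 window held 1 such core, whose first base lies 35 bases after the start, and the Adcy5 window held none. A match is a description of letters, not of a bound site.

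Protein kinase A catalytic subunits phosphorylate the targets of the pathway, and Prkacb, the β catalytic subunit, had the widest range of group means among the members, 2.61. Its levels were -3.57, -3.52 and -3.32 in pBOO + tolterodine, -2.81, -2.71 and -2.70 in pBOO, and -4.55, -5.94 and -5.56 in sham. The groups did not overlap, the pBOO arrays were highest, and only sham array 1 of the sham arrays was well above background. Prkacb averaged -2.74 ± 0.06 in pBOO and -5.35 ± 0.72 in sham (SD, n = 3 each), and its fitted change was 2.61 (SE 0.30, limma adjusted p = 0.000308). With the 2 dim sham arrays at the lowest level called well above background, pBOO was at least 5.77-fold higher on this scale. The fitted change in pBOO + tolterodine against sham was 1.88 (SE 0.30, limma adjusted p = 0.00352), at least 3.49-fold by the same bound. The change of -0.73 in pBOO + tolterodine against pBOO missed the threshold (SE 0.30, limma adjusted p = 0.0842).

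The rise of Prkacb in pBOO against sham was 1.81 within slide 2 (limma adjusted p = 0.00632) and 0.96 with normexp (limma adjusted p = 0.00250), and it was called in all 20 alternatives. In pBOO + tolterodine against sham it was 2.21 within slide 1 (limma adjusted p = 0.00276), and normexp brought it to 0.58 and ended the call (limma adjusted p = 0.0693). In pBOO + tolterodine against pBOO the sign of the change turned to 0.40 with slide as a fixed block, a link that rests on sham array 1, and the change was called without sham array 1 or 2 and with only the arrays compared.

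Prkaca, the α catalytic subunit, had 2 probes that disagreed. The brighter one, A_64_P105515, had levels of 2.50, 2.30 and 2.88 in pBOO + tolterodine, 3.00, 2.66 and 2.85 in pBOO, and 2.68, 2.64 and 2.66 in sham. The 3 groups overlapped, and the changes of 0.18 in pBOO against sham (limma adjusted p = 0.416) and -0.28 in pBOO + tolterodine against pBOO (limma adjusted p = 0.207) missed the threshold. Quantile scaling gave calls for both, at 0.52 and -0.52, and the second was also called without tolterodine array 3 (-0.44). The other probe, A_64_P016443, had levels of -2.26, -2.24 and -2.62 in pBOO + tolterodine, -2.95, -2.59 and -2.68 in pBOO, and -3.26, -3.82 and -3.53 in sham. Here all sham arrays were below all obstructed arrays. It rose by 0.80 in pBOO against sham (SE 0.18, limma adjusted p = 0.00875) and by 1.16 in pBOO + tolterodine against sham (SE 0.18, limma adjusted p = 0.00337). Within slide 2 the first of these was 0.52 and lost its call (limma adjusted p = 0.132), and within slide 1 the second was 1.43 (limma adjusted p = 0.00357). The first call was also lost with slide as a fixed block (0.52, limma adjusted p = 0.0641) and with normexp (0.37, limma adjusted p = 0.108), which brought the second to 0.64 (limma adjusted p = 0.0346). Its change of 0.37 in pBOO + tolterodine against pBOO was not called (limma adjusted p = 0.141), but was with slide as a fixed block, at 0.91 (limma adjusted p = 0.0275). Since the probes of the gene disagree, no direction is given for Prkaca as a gene.

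The windows of the catalytic subunits are shown because both hold the core. That of Prkaca is chr19:41083140-41083439 on the minus strand and that of Prkacb, at an annotated start inside the gene, is chr2:238386266-238386565 on the minus strand.
Prkaca: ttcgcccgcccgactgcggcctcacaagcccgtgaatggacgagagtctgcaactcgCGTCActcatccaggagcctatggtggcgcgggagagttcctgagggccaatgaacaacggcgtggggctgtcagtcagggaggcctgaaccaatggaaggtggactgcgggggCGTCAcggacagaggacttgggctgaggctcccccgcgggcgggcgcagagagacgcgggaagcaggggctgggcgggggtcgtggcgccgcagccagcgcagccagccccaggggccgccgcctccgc
Prkacb: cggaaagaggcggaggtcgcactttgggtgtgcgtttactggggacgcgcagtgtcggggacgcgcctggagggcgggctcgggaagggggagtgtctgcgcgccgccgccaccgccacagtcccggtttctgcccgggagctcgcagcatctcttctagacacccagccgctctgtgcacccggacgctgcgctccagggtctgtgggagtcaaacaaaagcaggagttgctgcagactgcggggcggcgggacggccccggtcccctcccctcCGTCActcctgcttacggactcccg
The matches of Prkaca begin at -193 and -79 from the start, and that of Prkacb at 25 after it. Of the 10 members 9 had a window, 11 windows in all, and Adcy3 had none. The core was found in 4 of the 11 windows, those of Prkaca, Prkacb and Adcy7 and 1 of Gnas, and in 21.2% of all 33469 rat promoter windows. The other Gnas windows held none. The full element TGACGTCA was in 0 of the 11 windows and in 1.83% of all windows. The GC box, GGGCGG or CCGCCC, was in 33.1% of all windows. Its matches numbered 10 for Grk2, 5 for Prkar1a, 4 for Adcy5, 3 each for Prkaca and Prkar2b, and 2 for Prkacb. The Gnas windows held 1, 0 and 4 matches, and those of Adcy7 and Rapgef3 held 0.

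Regulatory subunits hold the catalytic subunits inactive until cyclic AMP binds. Prkar1a, the type I α regulatory subunit, had levels of 1.54, 1.52 and 1.93 in pBOO + tolterodine, 0.85, 1.33 and 1.14 in pBOO, and 1.83, 1.60 and 1.66 in sham. Every pBOO array was below every array of the other groups, which overlapped. Prkar1a fell by 0.59 in pBOO against sham (SE 0.17, limma adjusted p = 0.0229) and rose by 0.55 in pBOO + tolterodine against pBOO (SE 0.17, limma adjusted p = 0.0301). Its change in pBOO + tolterodine against sham was -0.03 (limma adjusted p = 0.907, 95% interval -0.42 to 0.35). Each of the 2 calls was lost in 6 alternatives: the first without pBOO array 1 (-0.46) or 3 (-0.60) or sham array 1 (-0.52) or 3 (-0.61), the second without pBOO array 1 (0.43) or 3 (0.57) or tolterodine array 1 (0.62) or 3 (0.42), and each under 2 other settings. Within slide 2 the change in pBOO against sham was -0.72 (limma adjusted p = 0.0964).

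Prkar2b, the type II β regulatory subunit, spotted 10 times, had levels of -0.74, -0.65 and -1.30 in pBOO + tolterodine, -1.12, -0.99 and -1.09 in pBOO, and -0.99, -1.25 and -1.18 in sham. Tolterodine arrays 1 and 2 were above all others and tolterodine array 3 was the lowest of the 9. The limma adjusted p ran from 0.339 to 0.764. Without tolterodine array 3, which was alone on its slide, the change was 0.37 against pBOO and 0.44 against sham and both were called, and within slide 1 the change in pBOO + tolterodine against sham was 0.52 (limma adjusted p = 0.0119). With slide as a fixed block it was 0.52 against sham and 0.59 against pBOO, and both were called.

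Rapgef3, which encodes Epac1, had levels of -6.43, -6.03 and -6.07 in pBOO + tolterodine, -5.06, -4.79 and -4.03 in pBOO, and -5.46, -6.16 and -5.77 in sham. It was well above background on 1 of 3 tolterodine arrays, 3 of 3 pBOO arrays and 0 of 3 sham arrays, and all pBOO arrays were above all others. Rapgef3 was at least 1.93-fold higher in pBOO than in sham (limma adjusted p = 0.0104) and lower in pBOO + tolterodine than in pBOO, with a fitted change of -1.55 (SE 0.28, limma adjusted p = 0.00306). With the 2 tolterodine arrays that were not well above background set to the lowest level so called, that change was -1.12, which bounds its size from below. No fold is given for pBOO + tolterodine against sham, where both groups were near background. Within slide 2 the fitted change in pBOO against sham was 0.84 (limma adjusted p = 0.241), and slide as a fixed block ended both calls, at 0.84 (limma adjusted p = 0.147) and -1.10 (limma adjusted p = 0.151). With normexp the fitted change in pBOO against sham turned to -0.09 and that in pBOO + tolterodine against pBOO became -0.16, and neither was called. The processed signals of Rapgef3 ran from 7.77 to 58.4 units, beside a normexp offset of 50. Why its calls were lost with normexp, and why the sign turned in pBOO against sham, was not tested.

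Grk2, the kinase that phosphorylates active β-adrenoceptors, had levels of -0.65, -0.73 and -0.73 in pBOO + tolterodine, -1.35, -1.12 and -1.17 in pBOO, and -0.35, -0.57 and -0.55 in sham. The 3 groups did not overlap, with pBOO lowest and sham highest. Grk2 fell by 0.73 in pBOO against sham (SE 0.12, limma adjusted p = 0.00178), a 1.65-fold lower level, and rose by 0.51 in pBOO + tolterodine against pBOO (SE 0.12, limma adjusted p = 0.0102). Its change of -0.22 in pBOO + tolterodine against sham missed the threshold (limma adjusted p = 0.217). Within slide 2 the change in pBOO against sham was -0.87 (limma adjusted p = 0.0312), and both calls were kept in every alternative tried, 21 for the first and 20 for the second.

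**Figure D2:**
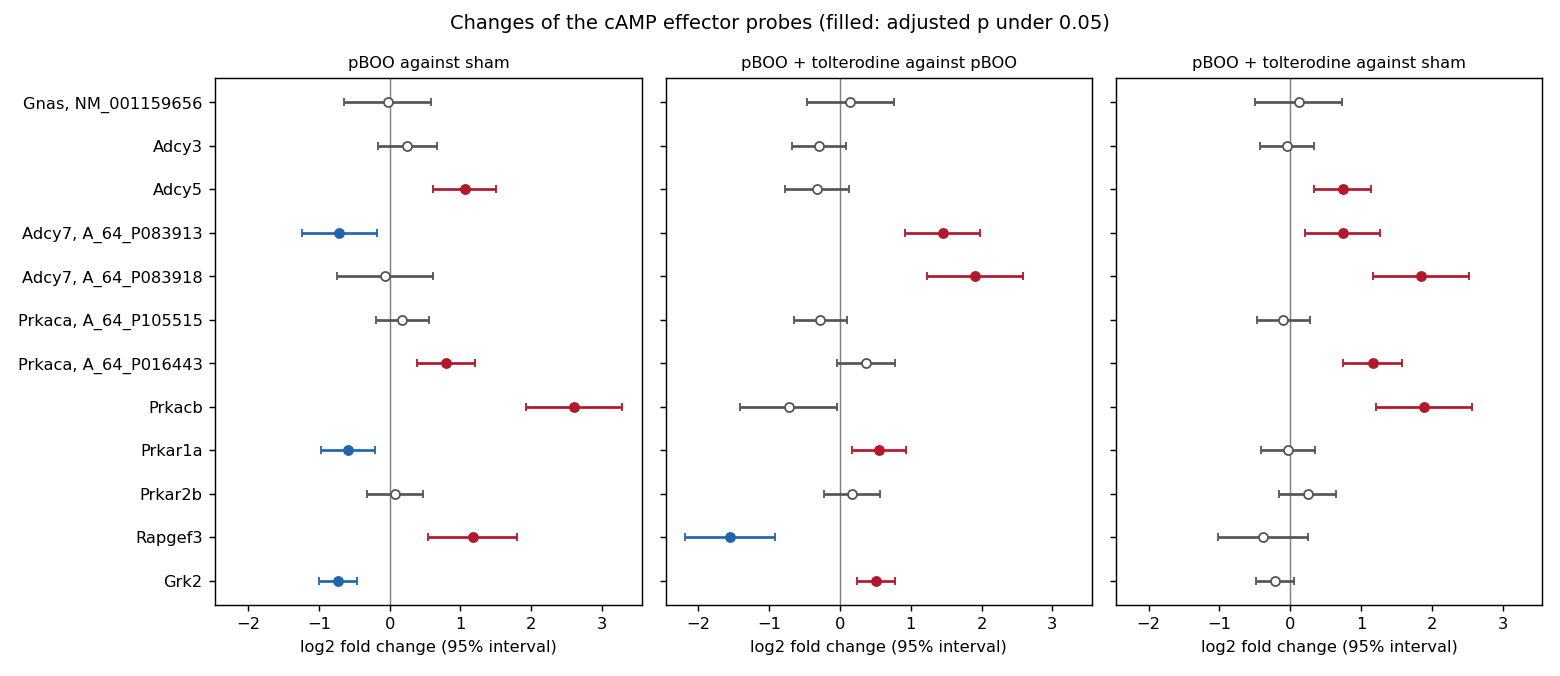
Log2 fold changes of the 12 tested member probes with 95% intervals in the 3 comparisons; filled points passed the threshold and open points did not. Grk2, Prkar1a and the first Adcy7 probe lie left of 0 in pBOO against sham and right of 0 in pBOO + tolterodine against pBOO, and Rapgef3 lies the other way.

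For the 3 members with the widest range of group means, the genes with the most similar centred levels over the 9 arrays were sought among 10104 genes with a value on every array. For Prkacb these were Map1a, S100pbp and Ppm1k, with a root mean square difference of 0.207, 0.229 and 0.269 on the log2 scale. For Rapgef3 they were Npb, Itgb1bp2 and Bmi1, at 0.283, 0.291 and 0.314. For the first Adcy7 probe they were Clec4a, Syndig1l and Or6z5, at 0.143, 0.148 and 0.151. Each gene was taken by its tested probe with the highest mean level, so the second Adcy7 probe was not used. Rapgef3 and the first Adcy7 probe were near background on some arrays.

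Other genes of the pathway were taken as 10 lists of 102 genes, and 70 had a tested probe, while 12 had no named probe, 16 were too dim and 4 were lost to flags. In pBOO against sham 41 were called, 32 higher and 9 lower, beside 41.2% of all genes (20.3% and 20.9%) with 1 probe each, with a median change of 0.35 against -0.04 for all genes. Under tolterodine 36 were called against pBOO, 10 higher and 26 lower, beside 39.6% of all genes (24.9% and 14.7%), with a median of -0.12 against 0.11. Against sham 20 were called, 18 higher and 2 lower, beside 23.3% of all genes (17.2% and 6.12%), with a median of 0.26 against 0.09.

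Among the receptors, Adrb1 was not called in pBOO against sham. Adrb3, the main β-adrenoceptor of bladder muscle, averaged -4.75 ± 0.12 in pBOO + tolterodine, -0.78 ± 0.37 in pBOO and -3.37 ± 1.66 in sham (SD, n = 3 each), with changes of 2.60 in pBOO against sham (limma adjusted p = 0.0142) and -3.97 in pBOO + tolterodine against pBOO (limma adjusted p = 0.00217). The Adrb3 change in pBOO against sham was 1.65 without sham array 1, 1.70 with normexp and 4.50 within slide 2, and that in pBOO + tolterodine against pBOO was -2.50 with normexp and -6.83 with slide as a fixed block, all called. Of 12 G protein genes, 5 rose and none fell in pBOO against sham, and 4 fell and none rose in pBOO + tolterodine against pBOO. Gnb5, a G protein β subunit, rose by 1.83 in the first (limma adjusted p = 2.73e-05, 0.59 with normexp) and fell by 1.43 in the second (limma adjusted p = 6.89e-05, lost with normexp at -0.55). Gnao1, an inhibitory-class α subunit, fell by 1.71 in pBOO + tolterodine against pBOO (limma adjusted p = 0.000379, -0.90 with normexp). Of the other cyclases only Adcy10 had a tested probe, and it was not called in any comparison.

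Among the other protein kinase A subunits and inhibitors 3 of 5 rose and 1 fell in pBOO against sham. Pkig, a peptide inhibitor of the catalytic subunit, rose by 1.44 (limma adjusted p = 0.00128, lost within slide 2 at 1.13), and Pkia, another inhibitor, was at least 2.87-fold higher in pBOO than in sham (limma adjusted p = 6.46e-05, lost with normexp). Pkib, also an inhibitor, fell by 1.79 (limma adjusted p = 0.000542) and rose by 1.28 in pBOO + tolterodine against pBOO (limma adjusted p = 0.00306, lost with slide as a fixed block at 1.05). Anchoring proteins bind protein kinase A to places in the cell, and of 9 tested 4 rose and 1 fell in pBOO against sham, while 1 rose and 5 fell in pBOO + tolterodine against pBOO. Akap6, known for the sarcoplasmic reticulum and nuclear envelope of muscle, rose by 3.41 (limma adjusted p = 0.00156) and fell by 2.75 (limma adjusted p = 0.00488) in these comparisons, with 1.84 and -1.78 under normexp and -4.95 in the second with slide as a fixed block. Ezr, a linker of membrane and actin in epithelia, fell by 0.79 in pBOO against sham (limma adjusted p = 0.00389, lost with quantile scaling at -0.46 and within slide 2).

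Of 5 genes around Epac and Rap, 2 rose in pBOO against sham and 2 fell in pBOO + tolterodine against pBOO. Rap1a, a target GTPase of Epac, had changes of 0.58 (limma adjusted p = 0.00369) and -0.93 (limma adjusted p = 0.000336). Of 11 phosphodiesterases 6 rose and 3 fell in pBOO against sham, and 2 rose and 4 fell in pBOO + tolterodine against pBOO. Pde2a, which breaks down cyclic AMP and is stimulated by cyclic GMP, had changes of 2.73 in pBOO against sham (limma adjusted p = 3.02e-05) and -2.22 in pBOO + tolterodine against pBOO (limma adjusted p = 6.35e-05). Pde7a, specific for cyclic AMP, moved the other way, with changes of -0.95 (limma adjusted p = 0.00248) and 1.71 (limma adjusted p = 0.000158). Pde1a, activated by calcium and calmodulin, was at least 1.99-fold higher in pBOO than in sham (limma adjusted p = 6.75e-05, lost with normexp).

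Of 8 tested genes of receptor desensitisation 2 rose and 2 fell in pBOO against sham. Rgs2, which shortens G protein signals, rose by 2.26 (limma adjusted p = 0.000202) and fell by 1.96 in pBOO + tolterodine against pBOO (limma adjusted p = 0.000403). Arrb2, the β-arrestin that binds phosphorylated receptors, had changes of -0.54 (limma adjusted p = 0.0123, lost within slide 2 at -0.59) and 1.11 (limma adjusted p = 0.000376), the same signs as Grk2 in these comparisons. In pBOO + tolterodine against sham the signs differed. There Arrb2 was higher by 0.57 (limma adjusted p = 0.0164, lost in 2 of 9 fits with 1 array left out), and Grk2 was not called at -0.22. Of the 6 tested CREB family genes none was called in pBOO against sham by limma, 0 of them at an unadjusted p under 0.05, and Crem alone was higher in pBOO + tolterodine against pBOO, by 0.43 (limma adjusted p = 0.0337). The Crem call was lost with normexp, median scaling, no filter on dim probes, any slide or replicate block, or without tolterodine array 2 or 3, pBOO array 2 or 3 or sham array 3, at 0.31 to 0.47. Of 10 tested other cyclic AMP binding proteins and substrates 8 rose and 2 fell in pBOO against sham, and 2 rose and 6 fell in pBOO + tolterodine against pBOO. Popdc2, a cyclic AMP binding membrane protein of muscle, rose by 2.61 in pBOO against sham (limma adjusted p = 0.000332), and Pln, the inhibitor of the sarcoplasmic calcium pump, fell by 2.36 in pBOO + tolterodine against pBOO (limma adjusted p = 0.000685, -3.65 with slide as a fixed block). Ppp1r1b, a phosphatase inhibitor, was at least 8.71-fold higher in pBOO + tolterodine than in pBOO (limma adjusted p = 4.46e-06, a fitted change of 5.26, or 1.54 with normexp) and was well above background on 0 of 3 pBOO arrays.

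**Figure D3:**
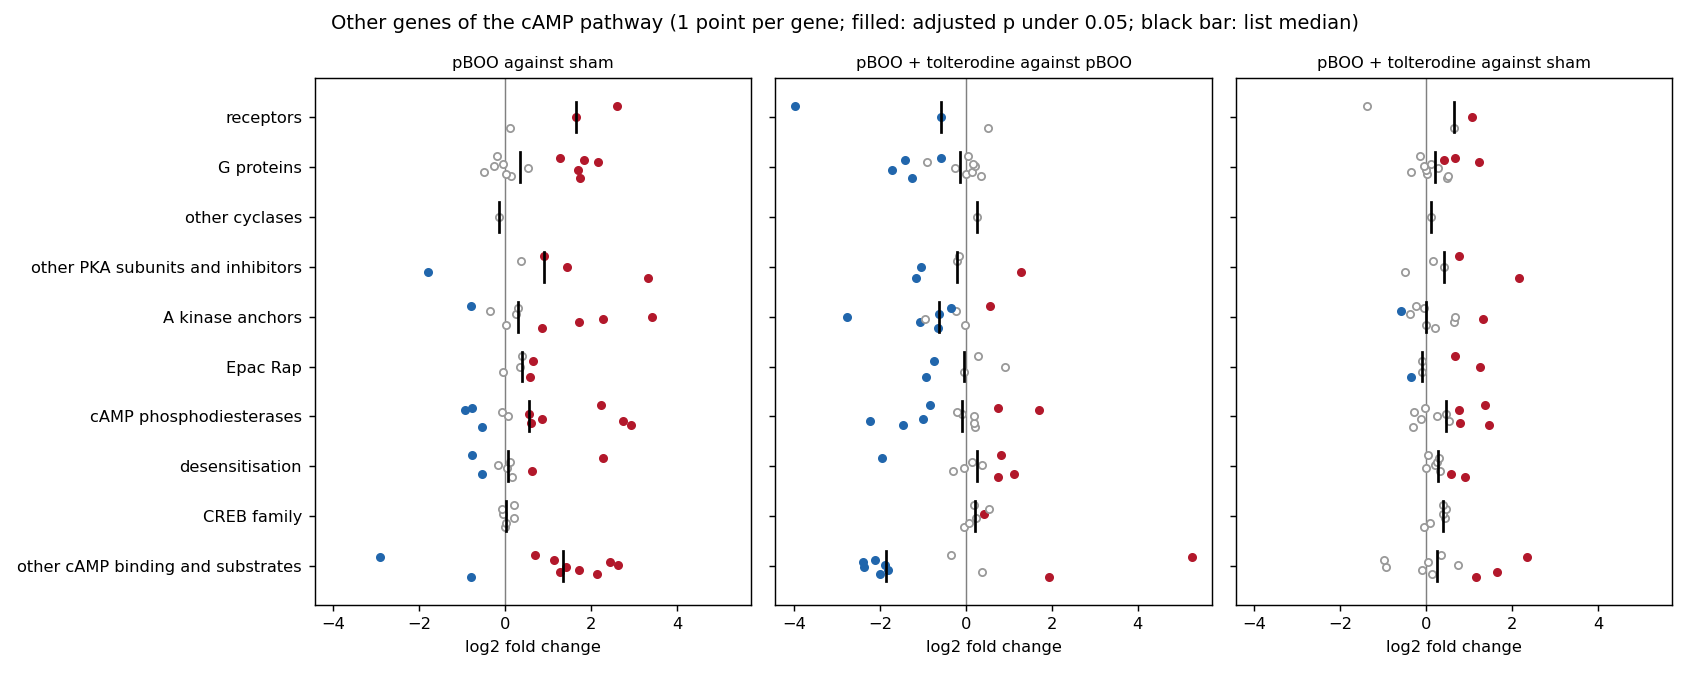
Fitted log2 fold changes of 70 other genes of the cAMP pathway in 10 lists, 1 point per gene, in the 3 comparisons; filled points passed the threshold and black bars are list medians. Fitted values of genes with a group at background are plotted as fitted, not as bounds. In pBOO against sham 32 filled points lie right of 0 and 9 left of it.

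Markers of cell types moved with the groups, and their part in these results was not tested. Of 6 tested smooth muscle markers 5 rose in pBOO against sham and 5 fell in pBOO + tolterodine against pBOO, and the mean level of the 5 with a value on every array ran from 0.07 to 0.21 in pBOO + tolterodine, 1.71 to 1.90 in pBOO and -0.67 to 0.05 in sham. By group mean, Prkacb, Rapgef3 and Adcy5 were also highest in pBOO. The mean levels of the endothelial and nerve markers were likewise higher on every pBOO array than on any other array. In pBOO + tolterodine against sham, 1 of 6 smooth muscle markers was higher and 0 lower. There Prkacb and Adcy5 were called higher, by 1.88 and 0.74, and Rapgef3 was not called. Of 10 macrophage markers 7 fell in pBOO against sham and 9 rose in pBOO + tolterodine against pBOO, with a mean level, over the 9 with a value on every array, of 1.56 to 1.62 in pBOO + tolterodine, -0.27 to -0.22 in pBOO and 0.43 to 0.68 in sham. Neutrophil markers had 4 of 5 lower and 5 of 5 higher in the same comparisons, with a mean level of -1.38 to -1.26, -4.82 to -4.23 and -2.38 to -1.74 in pBOO + tolterodine, pBOO and sham. The first Adcy7 probe had the same order of group means. Urothelial markers had 3 of 6 lower in pBOO against sham, and fibroblast and endothelial markers had 3 of 6 higher each. In pBOO + tolterodine against sham, 3 of 6 urothelial markers were lower and 1 higher. Of 6 each, 4 fibroblast and 3 endothelial markers were higher there and 0 lower. Over all genes with 1 probe each, 20.3% were higher and 20.9% lower in pBOO against sham. These shares were 24.9% and 14.7% in pBOO + tolterodine against pBOO, and 17.2% and 6.12% in pBOO + tolterodine against sham. The smooth muscle genes Actg2, Tagln and Des and the urothelial genes Upk1a, Upk2, Upk3a and Krt19 were lost to flags.

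**Figure D4:**
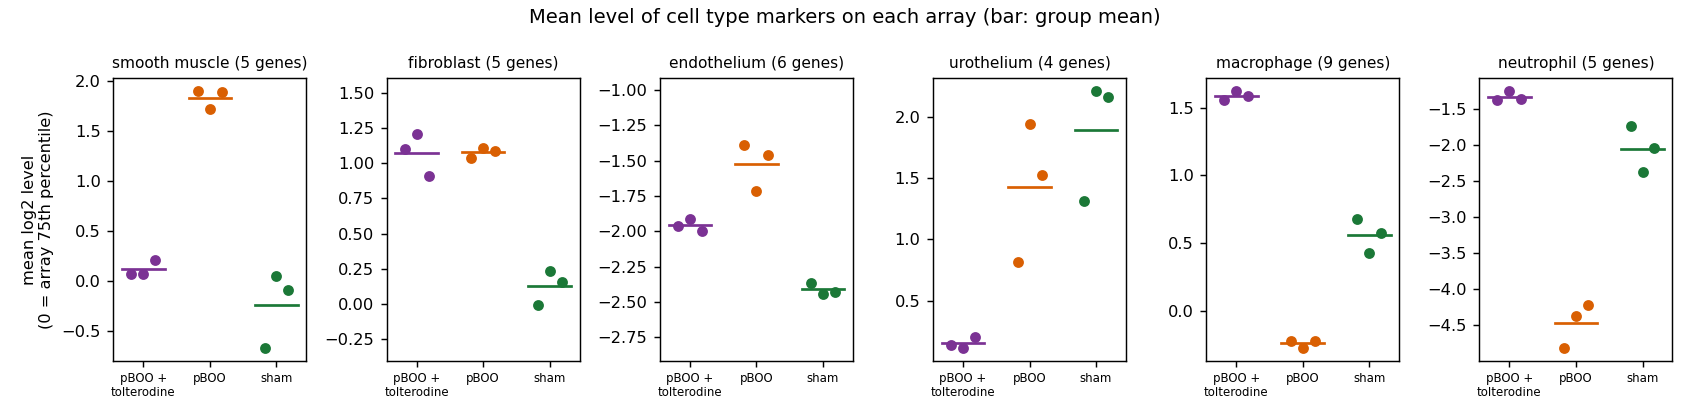
Mean log2 level of the markers of 6 cell types with a value on every array, plotted by array (0 is the array's 75th percentile), with bars for group means. The smooth muscle and endothelial markers are highest on the pBOO arrays. The macrophage and neutrophil markers are highest on the tolterodine arrays and lowest on the pBOO arrays.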

How the data were processed

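Bladder RNA of 9 samples was labelled with Cy3 and hybridised to 1 array each. Per the file headers, the authors read the arrays with Agilent Feature Extraction 11.0.1.1 (9.1 per the submitters' processing notes); the deposited processed signal is an intensity, background-subtracted and spatially detrended and not normalized between arrays, and the deposited median signals are raw intensities. The deposited flags are 0 or 1. The headers name an older rat build, so coordinates come from GRCr8 alone. Later steps of the authors are not given in the sources used here.

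Processed signals were put on the log2 scale minus the 75th percentile of non-control spots, spots flagged as non-uniform or as outliers, or with a flagged background, were set to missing and repeated spots averaged. Probes well above background on at least 3 arrays, with at least 2 unflagged arrays per group, were tested: 20475 of 30367, with 1670 lost to flags. Probe accessions were matched to RefSeq symbols, 1 symbol for 18005 probes and none for 12362. One moderated two-sided limma fit over the 9 arrays (limma 3.58.1 under R 4.3.3, files read by data.table version 1.17.8) gave each contrast, with Benjamini-Hochberg adjustment over all probes, and was tested on simulated data. The number of arrays limits precision: the median SE was 0.183. Adcy3 and Adcy5 were fitted without their flagged arrays.

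The members and lists were chosen with earlier results of these data known. Every member probe is described, led by its brightest; other pathway genes have 1 probe each (highest mean), and at most 2 per list, direction and comparison are named, by size of change among those called. Most alike genes have the smallest root mean square difference for the 3 members of widest range. Lists of T and B cell, adipocyte and nerve markers had 4, 2 and 5 tested genes: in pBOO against sham 0, 1 and 1 were higher and 0, 1 and 1 lower; in pBOO + tolterodine against pBOO 3, 0 and 0 were higher and 0, 1 and 2 lower. Alternatives were other background corrections, scalings, filters, flags, slide blocks, a replicate block and leaving out each array; those for the wider lists were added after seeing the data. Some genes of these lists are not reported here.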

Additional observations from a re-analysis of the deposited data

How the results depend on the processing

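Of the member values under the alternatives, 633 kept their direction and side of the threshold, 56 lost a call, 13 gained one and 24 changed sign. Normexp gave 4, 2 and 1 member probes called (pBOO against sham, pBOO + tolterodine against pBOO, pBOO + tolterodine against sham), against 7, 5 and 5 as reported, and 4820, 4653 and 1376 of all probes against 8384, 7903 and 4900. Requiring all 9 arrays above background gave 4, 2 and 2, with fewer probes tested. In pBOO against sham, slide as a fixed block gave 4 and slide 2 alone gave 2, with 1 sham array left. In pBOO + tolterodine against sham, median scaling, quantile scaling and 1 probe per gene gave 3 each. Leaving out 1 array gave 5 to 7, 4 to 6 and 3 to 5; the lowest of the last, 3, came without tolterodine array 1. Of 70 wider genes 20 were called in pBOO + tolterodine against sham; normexp gave 4, fixed slide 37, random slide 35, slide 1 alone 41, and leaving out 1 array 12 to 32 (13 without tolterodine array 1, 12 without tolterodine array 2, 32 without sham array 1, 13 without sham array 3). Over all probes that comparison gave 8146, 7814 and 10186 calls with fixed slide, random slide and slide 1 alone, and pBOO against sham gave 4674 in slide 2. Leaving out 1 array gave 2730 to 6898 for pBOO + tolterodine against sham over all probes (2908 and 2776 without tolterodine array 1 and 2, 2966 and 2730 without sham array 2 and 3). The causes were not tested, apart from the fewer probes or arrays named.

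The share of higher calls moved to 36.2% with normexp in pBOO against sham (49.1% as reported), to 54.9% and 58.3% with median and quantile scaling in pBOO + tolterodine against sham (76.1%), to 62.7% and 61.2% there with fixed slide and slide 1, and to 54.2% with quantile scaling in pBOO + tolterodine against pBOO (65.8%). The median of all probes moved to -0.12, 0.10 and -0.02 with median scaling, and to 0.01 with quantile scaling in pBOO + tolterodine against sham.

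Signs turned as follows. For pBOO against sham, Rapgef3 was -0.087 with normexp, Prkar2b was -0.0050 with median scaling and -0.073 with fixed slide and in slide 2; leaving out 1 array gave -0.29 to 0.30 for Gnas and -0.33 to 0.17 for Adcy7 (A_64_P083918). For pBOO + tolterodine against pBOO, Prkacb was 0.40 with fixed slide and Gnas was -0.017 with quantile scaling and -0.19 to 0.41 with 1 array left out. For pBOO + tolterodine against sham, Adcy3 was 0.069 with fixed slide and in slide 1, 0.0077 with random slide, and -0.14 to 0.036 with 1 array left out; Gnas was -0.021 and -0.18 with median and quantile scaling; Prkaca (A_64_P105515) was 0.0025 with quantile scaling and -0.26 to 0.032 with 1 array left out; Prkar1a was 0.040 and -0.17 to 0.039 with these settings. All but Rapgef3 were uncalled as reported.

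With a replicate block, 7, 4 and 4 member probes and 40, 33 and 17 wider genes were called. Same-numbered arrays correlated between -0.08 and 0.17 and different-numbered arrays between -0.17 and 0.15. With 3 arrays per group these values cannot show whether the numbers pair the arrays. The block lost Prkar1a in pBOO + tolterodine against pBOO and Adcy7 (A_64_P083913) in pBOO + tolterodine against sham. Members near background (Adcy7, Rapgef3, Prkacb in sham) have folds that depend on the background correction, and the normexp offset of 50 units shrinks changes of such dim probes. What turned the sign of Rapgef3 with normexp was not tested.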
